A study of Mus musculus with 12 samples.

Results

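Oxidative phosphorylation genes encode the protein complexes of the inner mitochondrial membrane that pass electrons to oxygen and make ATP. They were chosen by gene symbol: subunits of complex I (Nduf), complex II (Sdh), complex III (Uqcr and Cyc1), complex IV (Cox4 to Cox8) and complex V (Atp5). Of 12393 genes with a probe set paired with a single gene, 79 matched: 33 of complex I, 4 of complex II, 9 of complex III, 16 of complex IV and 17 of complex V. Where a gene had several probe sets (43 of the 79), the brightest over all arrays was taken. The symbol rule itself uses no measured value. Cox7a2l, which the symbol rule takes in, encodes a factor that joins complexes III and IV and not a subunit of either, and Ndufa4, counted here with complex I by its name, is now placed in complex IV.

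Total RNA of 12 mouse samples was hybridised to Affymetrix arrays, 3 arrays in each of 4 groups. The first group was RAW264.7 cells, a mouse macrophage-like line, grown overnight with estradiol at 1 ug/mL, and it was compared with RAW264.7 cells that the labels call unstimulated and the design text calls vehicle-treated. The other groups were macrophages washed from the airways of pregnant mice and of control mice by bronchoalveolar lavage, whose RNA was taken directly. The labels attach the estradiol treatment to all 12 samples, which goes against the design text for the lavage and the unstimulated cells, so groups were taken from the group label. Strain, sex, age, stage of pregnancy, vehicle and any sorting of the lavage cells are not given. The labels do not say whether the arrays of a group came from separate cultures or animals, so p-values measure only the spread between these arrays, which may be technical.

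Electrons from NADH enter at complex I and those from succinate at complex II, and both pass over coenzyme Q to complex III, over cytochrome c to complex IV and from there to oxygen. Complexes I, III and IV pump protons, and complex V, the ATP synthase, uses the gradient to make ATP. All subunits measured here are encoded in the nucleus, and the few subunits made from mitochondrial DNA are not in the gene set. Several complex IV subunits exist as a ubiquitous form and a form that is known from muscle, lung or testis, and macrophages are known to shift between glycolysis and mitochondrial respiration when activated.

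Promoter windows of the genes were taken from RefSeq (GRCm38.p6), from 250 bases before to 50 bases after a gene's start. They covered 64 of the 79 genes in 69 windows, each 300 bases long. Those of the pairs of complex IV isoforms that differ most in the results are shown here beside that of Sdha, whose window holds 3 matches to the NRF1 motif. Cox6b2 lies on the minus strand at chr7:4753045-4753344 and Cox6b1 on the minus strand at chr7:30626065-30626364. Cox7a1 lies on the plus strand at chr7:30183921-30184220 and Cox7a2 on the minus strand at chr9:79759804-79760103. Sdha lies on the minus strand at chr13:74350191-74350490. Each is printed 5′ to 3′ along the gene, and capitals mark a match to a motif that was searched.
Cox6b2: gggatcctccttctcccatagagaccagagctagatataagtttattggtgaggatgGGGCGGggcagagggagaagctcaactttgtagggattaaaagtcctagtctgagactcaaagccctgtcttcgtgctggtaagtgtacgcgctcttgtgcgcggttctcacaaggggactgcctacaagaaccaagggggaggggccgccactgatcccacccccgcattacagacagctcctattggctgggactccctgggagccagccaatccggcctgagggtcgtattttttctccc
Cox6b1: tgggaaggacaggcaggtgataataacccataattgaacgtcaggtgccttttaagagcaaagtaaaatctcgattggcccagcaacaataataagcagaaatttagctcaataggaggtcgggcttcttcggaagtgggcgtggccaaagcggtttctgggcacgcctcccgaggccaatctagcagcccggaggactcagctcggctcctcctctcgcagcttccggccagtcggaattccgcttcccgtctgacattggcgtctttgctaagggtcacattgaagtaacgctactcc
Cox7a1: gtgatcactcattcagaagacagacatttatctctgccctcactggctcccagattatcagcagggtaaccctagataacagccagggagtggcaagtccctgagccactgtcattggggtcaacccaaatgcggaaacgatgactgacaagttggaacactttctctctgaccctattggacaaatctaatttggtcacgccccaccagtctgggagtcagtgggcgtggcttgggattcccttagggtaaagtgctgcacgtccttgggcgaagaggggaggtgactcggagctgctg
Cox7a2: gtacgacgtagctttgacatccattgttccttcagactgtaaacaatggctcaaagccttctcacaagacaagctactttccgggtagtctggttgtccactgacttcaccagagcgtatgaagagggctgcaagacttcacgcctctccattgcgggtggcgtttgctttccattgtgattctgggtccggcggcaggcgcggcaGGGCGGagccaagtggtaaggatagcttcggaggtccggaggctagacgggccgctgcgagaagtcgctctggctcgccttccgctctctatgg
Sdha: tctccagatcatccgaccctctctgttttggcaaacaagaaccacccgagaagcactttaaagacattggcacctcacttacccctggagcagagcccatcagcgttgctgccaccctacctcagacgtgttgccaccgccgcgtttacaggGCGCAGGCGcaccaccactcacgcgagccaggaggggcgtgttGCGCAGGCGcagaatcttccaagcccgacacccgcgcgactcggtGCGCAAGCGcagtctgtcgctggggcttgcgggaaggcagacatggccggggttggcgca

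The motifs, searched on both strands, were GCGCANGCG for NRF1, CCGGAAGT for GABPA, AANATGGCG for YY1, TNAAGGTCA for the estrogen-related receptors and GGGCGG for SP factors. NRF1 and GABPA are known regulators of respiratory chain genes. The NRF1 pattern is nearly its own reverse complement, so a site can match on both strands at overlapping positions. In the windows printed, Sdha has 3 NRF1 matches, which begin 98, 55 and 10 bases before its start. Cox6b2 has an SP match that begins 193 bases before its start, Cox7a2 has an SP match that begins 44 bases before its start, and the windows of Cox6b1 and Cox7a1 hold none of the 5 motifs. The NRF1 pattern was in 26.1% of the 69 windows of oxidative phosphorylation genes, against 10.6% of 12566 windows of 9887 genes on the array. For YY1 the shares were 13% and 3.87%, for GABPA 7.25% and 6.3%, for the estrogen-related receptors 2.9% and 0.875%, and for SP 39.1% and 55.4%. The median GC content of the windows was 58.3% for oxidative phosphorylation genes and 59% for genes on the array. These matches describe letters in a window and were not tested as binding sites.

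The deposited values are linear RMA intensities, analysed as log2(value + 1), and a fold change here is on that scale, which understates changes of dim genes. The median intensity per array was 369 to 393, and arrays of a group correlated at 0.995 to 0.999 in log2 values. In the cell line, the array estradiol 2 stood apart in the array's own RNA quality probes, with a 3′ minus 5′ difference for beta-actin of 0.74 on the log2 scale, where the remaining 5 arrays of the line had 0.39 to 0.48. Of 5 macrophage marker genes with a single-gene probe set, 4 lay above the 40th percentile on all 12 arrays, and Mertk did so on the lavage arrays only. Of 6 alveolar macrophage genes, all 6 did so on the 6 lavage arrays. Siglecf, Marco, Car4 and Chil3 did so on no RAW264.7 array, while Itgax and Fabp4 did so on all 6 of them, and Fabp4 was lower in control lavage than in unstimulated RAW264.7 cells, with means of 11.67 and 13.57 log2 units. A gene is called dim below where it was not above the 40th percentile of an array, since the deposited table gives no detection calls.

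Oxidative phosphorylation genes were among the brightest on the arrays. Their median stood at the 95.7th percentile of all genes, and 57 of the 79 lay in the top 10%, whereas Cox4i2, Cox8b and Cox8c were dim in both sources and Cox6b2 was dim in the cell line. The replicate SD was small, with a median over the 79 genes of 0.04 (estradiol), 0.03 (unstimulated), 0.05 (pregnant) and 0.05 (control) in log2 units, against 0.09, 0.06, 0.10 and 0.10 over all genes. No array pair held identical values.

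**Figure D1:**
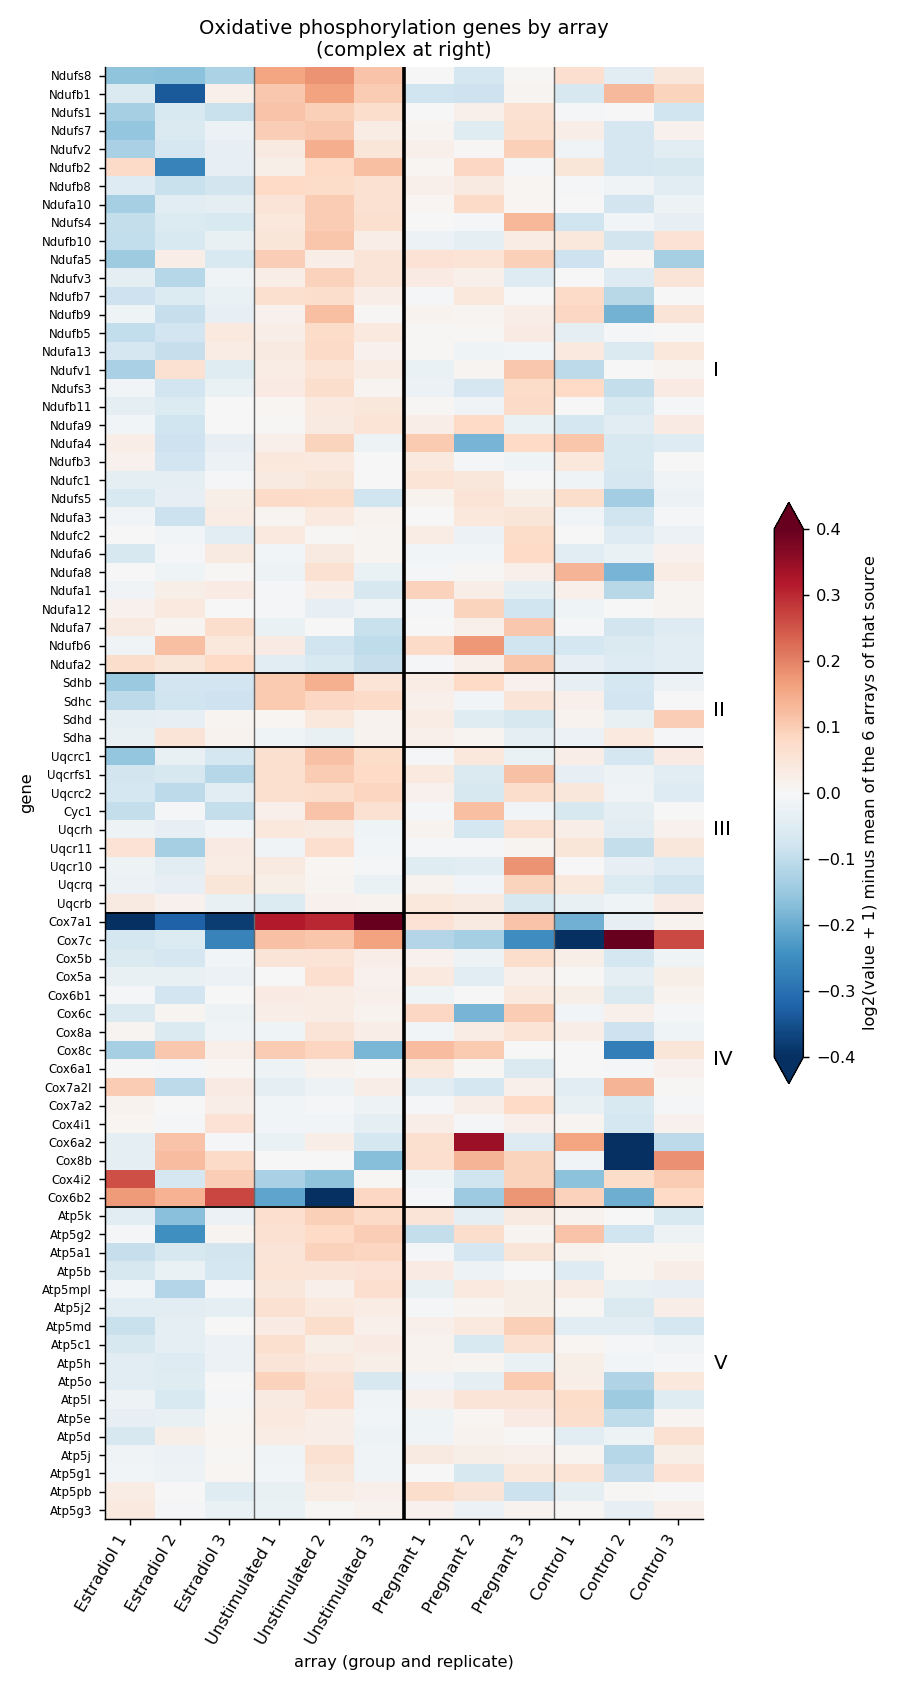
Each row is a gene, each column an array, and the colour is log2(value + 1) minus the mean of that gene over the 6 arrays of the same source, with values past the ends of the colour bar clipped. In 38 of the 79 rows every estradiol array is below every unstimulated array, and the deepest such row is Cox7a1 of complex IV, while the lavage columns are paler and mixed, with more blue in control 2.

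With estradiol, RAW264.7 cells had slightly lower signals for most oxidative phosphorylation genes, and few single genes passed the test. In the fit over all 12393 genes (limma, Benjamini-Hochberg adjusted p under 0.05), 5 of the 79 fell and 0 rose, while 4.66% of all genes fell and 6.75% rose. The 5 that fell were Cox7a1, Ndufs8, Ndufs1, Sdhb and Sdhc. At an unadjusted p under 0.05, 20 of the 79 were lower and 2 were higher, while of all 12393 genes 1387 were lower and 1944 higher. By the adjusted test of this fit, the share of the 79 that fell, 6.33%, is near that of all genes, and the counts of other models are given below.

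The sign of the differences was one-sided. Of the 79 genes, 64 (81%) had a negative difference, against 45.1% of all genes, and the median difference was -0.06 log2 units, against 0.02 over all genes. In the top 10% of genes by level, where 57 of the 79 lie, 49.2% of genes had a negative difference, and 49 of those 57 did. In 38 of the 79 genes (48.1%) all 3 estradiol arrays lay below all 3 unstimulated arrays, and 14.9% of all genes showed this. The opposite order held in 6 of the 79 (7.59%) and in 19.9% of all genes, the 6 being Cox4i1, Cox6b2, Cox7a2, Ndufa12, Ndufa2 and Ndufa7. Shifting every array to a common median left 53 of the 79 and 37.3% of all genes negative. Without estradiol 2, 61 were negative. Over all 148 probe sets of these genes, 109 were negative, against 48.4% of all probe sets with a single gene. Of the 43 genes with several probe sets, 11 had another probe set whose difference was of opposite sign to that of the one taken. Among marker lists of cell types, 2 of 6 alveolar macrophage genes (Itgax and Fabp4) and 1 of 6 epithelial genes fell and 1 of 5 neutrophil genes rose, and their part in these differences was not tested. The summed intensity was 12292 to 13182 in estradiol arrays and 15540 to 15801 in unstimulated arrays for the alveolar macrophage list. For the neutrophil list it was 591 to 624 in estradiol arrays and 335 to 402 in unstimulated arrays.

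The changes were small in size. In 77 of the 79 genes the 95% interval of the estradiol change excluded a change of 0.5 log2 units in either direction, and in 74 the measured change was under 0.2. The median difference by complex was -0.08 for complex I, -0.11 for complex II, -0.04 for complex III, 0.00 for complex IV and -0.08 for complex V.

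**Figure D2:**
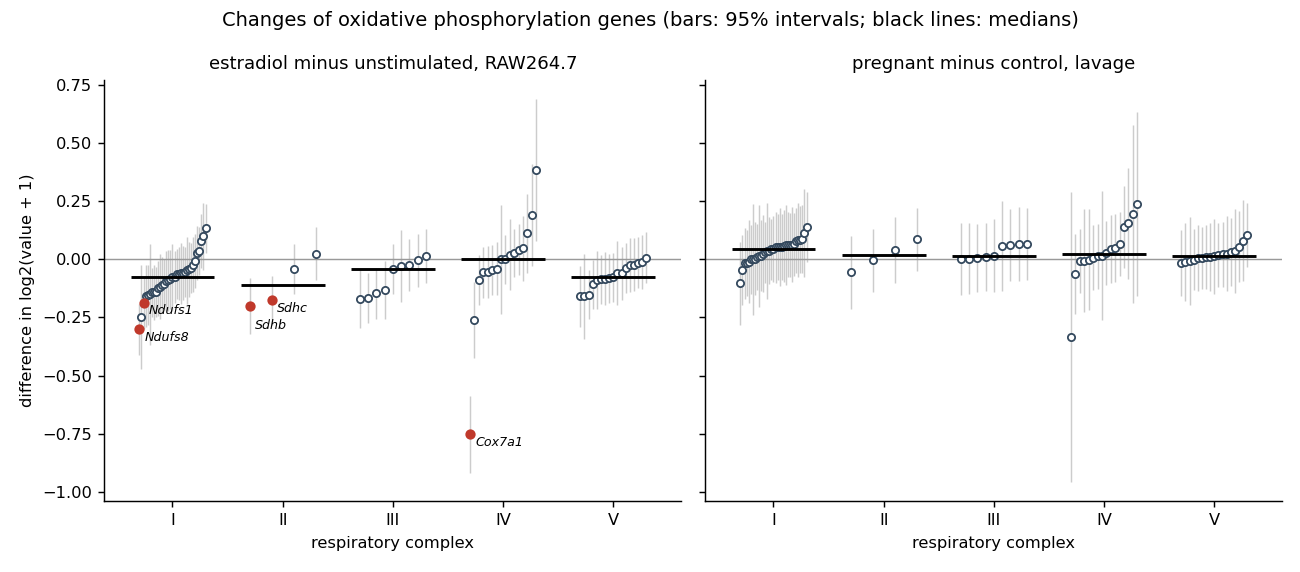
Points are genes, ordered within each complex by their difference in log2(value + 1), with 95% intervals as grey bars and the median of each complex as a black line. The left panel is estradiol minus unstimulated RAW264.7 cells and the right panel is pregnant minus control lavage, and red filled points passed the test. The 5 red points lie below 0 in the estradiol panel, and the pregnancy panel has none.

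Cox7a1 had the largest change of the 79. It encodes the form of complex IV subunit VIIa known from heart and skeletal muscle. Its intensity was 219, 235 and 226 in the estradiol arrays, against 367, 364 and 419 in the unstimulated arrays. The groups did not overlap, and the levels were modest, at the 42.6th percentile of all genes in estradiol cells and the 46.3rd in unstimulated cells. The fall was 0.75 log2 units (SE 0.07, 95% interval -0.92 to -0.59, adjusted p = 0.00104), or 1.68-fold, which ranks 75th by size among falls of the 12393 genes. It has a single probe set here, so no second one checks it. The 3 genes that follow Cox7a1 on chromosome 7 in RefSeq, Capns1, Tbcb and Polr2i, had estradiol differences of -0.03, -0.04 and -0.08 log2 units, and none of these passed the test.

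The other form of subunit VIIa, Cox7a2, is the ubiquitous one. Its intensity was 14581, 14404 and 14687 in the estradiol arrays, against 14315, 14369 and 14219 in the unstimulated arrays. The estradiol arrays were all slightly higher, the difference was 0.03 log2 units (95% interval -0.08 to 0.13, adjusted p = 0.755), and the test was not passed. Of 8 muscle markers 0 passed the test, but most of them were dim in RAW264.7 cells, where a change could hardly be called, and 2 were higher at an unadjusted p under 0.05. Their summed intensity was 525 to 598 in estradiol arrays and 505 to 543 in unstimulated arrays.

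**Figure D3:**
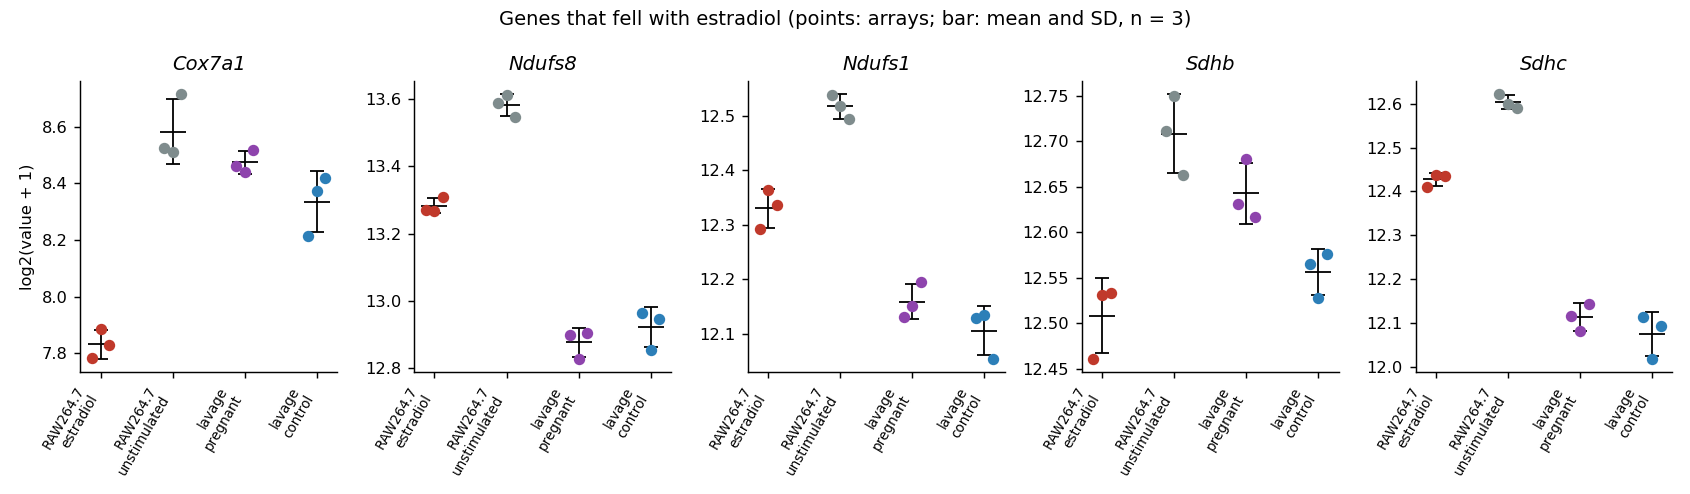
Points are arrays, and bars are the mean and SD of 3 arrays, for the 5 genes that fell with estradiol, in log2(value + 1), with an axis of its own for each gene that does not start at 0. In each panel the 3 estradiol arrays lie below the 3 unstimulated arrays, and for Cox7a1 and Sdhb the pregnant arrays lie above the control arrays.

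In complex I, both genes that fell encode core subunits that carry electrons. Ndufs8, which binds iron-sulfur clusters near the coenzyme Q site, had intensities of 9887, 9866 and 10140 in the estradiol arrays, against 12324, 12519 and 11979 in the unstimulated arrays. The groups did not overlap and the fall was 0.30 log2 units (SE 0.05, adjusted p = 0.00883). Its kept probe set is of a type (x_at) that can bind related transcripts. Of the 6 probe sets of Ndufs8, 5 passed the test when all probe sets were fitted, with differences from -0.44 to -0.29, and the dimmest had -0.12.

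Ndufs1, the largest iron-sulfur subunit of complex I, had intensities of 5014, 5269 and 5170 in the estradiol arrays, against 5949, 5868 and 5767 in the unstimulated arrays. The groups did not overlap, and the fall of 0.19 log2 units (SE 0.05) was close to the threshold, with an adjusted p of 0.0488. By the probe sets taken, the other core subunits were lower by less than the test could call. Ndufs7, another cluster-binding subunit, had 9534, 10198 and 10433 with estradiol, against 11370, 11435 and 10826 without (difference -0.16, adjusted p = 0.125). A second, dimmer probe set of Ndufs7 had a difference of -0.25 and passed the test when all probe sets were fitted (adjusted p = 0.0293). Ndufv2, of the module that takes electrons from NADH, had 6718, 7018 and 7185 with estradiol, against 7544, 8128 and 7595 without (difference -0.15, adjusted p = 0.129). Ndufs3 had a difference of -0.08 (adjusted p = 0.35), with 8542, 8153 and 8436 against 8800, 9024 and 8675, and its groups did not overlap either. Ndufv1, which binds the NADH, had 5587, 6381 and 5916 with estradiol, against 6247, 6350 and 6239 without, and these overlapped (difference -0.08, adjusted p = 0.463). All 6 measured core subunits thus had negative differences, with a median of -0.16, and by the probe sets taken 2 of the 6 passed the test.

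Among the accessory subunits of complex I, Ndufa2 had the highest difference, 0.13 log2 units (adjusted p = 0.11), with 10164, 10003 and 10227 in the estradiol arrays against 9367, 9274 and 9075 in the unstimulated arrays. These groups did not overlap, but the gene did not pass the test. Ndufb1, a small membrane subunit, had the most negative difference of these, -0.25 (adjusted p = 0.147), with 207, 171 and 219 against 232, 241 and 232, and estradiol 2 was its lowest array.

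Complex II, succinate dehydrogenase, also belongs to the citric acid cycle. Sdhb, its iron-sulfur subunit, had intensities of 5637, 5918 and 5926 in the estradiol arrays, against 6708, 6887 and 6485 in the unstimulated arrays, a fall of 0.20 log2 units (SE 0.05, adjusted p = 0.0494). Sdhc, a membrane anchor that helps bind heme, had 5443, 5546 and 5534 with estradiol, against 6301, 6203 and 6169 without, a fall of 0.18 (SE 0.04, adjusted p = 0.0476). In both, the groups did not overlap. Sdhd, the other anchor, had 6304, 6332 and 6525 against 6516, 6667 and 6544, which overlap at their edges (difference -0.04, adjusted p = 0.604). Sdha, the flavin subunit that oxidises succinate, had 8564, 9069 and 8834 against 8637, 8562 and 8840, with overlap (difference 0.02, 95% interval -0.09 to 0.14, adjusted p = 0.802).

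In complex III none of the 9 genes passed the test, and 8 had negative differences. Uqcrc1 and Uqcrc2 encode the core proteins, Uqcrfs1 the Rieske iron-sulfur protein and Cyc1 cytochrome c1. Uqcrfs1 had 5612, 5648 and 5451 in the estradiol arrays, against 6175, 6337 and 6242 in the unstimulated arrays (difference -0.17, adjusted p = 0.0626). Uqcrc1 had 5351, 5833 and 5681 with estradiol, against 6231, 6469 and 6274 without (difference -0.17, adjusted p = 0.0889). Uqcrc2 had 9596, 9363 and 9776 with estradiol, against 10536, 10575 and 10696 without (difference -0.15, adjusted p = 0.0886). Cyc1 had 3857, 4107 and 3858 with estradiol, against 4183, 4458 and 4303 without (difference -0.13, adjusted p = 0.169). In these 4 the groups did not overlap, while in the 5 smaller subunits of the complex they did, with Uqcrb, at 0.02, the only positive difference.

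In complex IV, the complex that passes electrons to oxygen, the differences were split, with 9 negative and 7 positive. Apart from Cox7a1, none of its 16 genes passed the test. Cox7c, a small subunit, had 385, 390 and 336 in the estradiol arrays, against 439, 436 and 453 in the unstimulated arrays, without overlap (difference -0.26, adjusted p = 0.0574). Cox4i1, the ubiquitous form of subunit IV, had 8962, 8897 and 9291 with estradiol, against 8848, 8862 and 8678 without (difference 0.04, 95% interval -0.07 to 0.15, adjusted p = 0.622). Cox4i2, the form known from lung and hypoxic cells, was dim, with 85, 68 and 76 against 65, 63 and 71, which overlap. Cox6a2 and Cox8b, known from muscle, had differences of 0.05 and 0.11 (adjusted p = 0.668 and 0.367), and Cox8c, known from testis, had one of 0.00 (adjusted p = 0.997).

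In complex V, 16 of 17 genes had a negative difference and none passed the test. By the probe sets taken, all 5 genes of the F1 part, which makes the ATP, were negative, with a median of -0.08. Atp5a1, the alpha subunit, had 10770, 10991 and 10910 in the estradiol arrays, against 11899, 12238 and 12187 in the unstimulated arrays (difference -0.15, adjusted p = 0.0758). Its other probe sets, nearly as bright, did not show this fall, with differences of 0.025 and 0.018. Atp5b, the catalytic beta subunit, had 12268, 12606 and 12216 with estradiol, against 13320, 13292 and 13360 without (difference -0.11, adjusted p = 0.175). The gamma subunit gene Atp5c1 had a difference of -0.08, Atp5d of -0.02 and Atp5e of -0.04. The groups of Atp5a1, Atp5b and Atp5c1 did not overlap. Of the 3 genes of the proton-carrying c subunit, Atp5g1, Atp5g2 and Atp5g3, the differences were -0.01, -0.16 and 0.01, and estradiol 2 had the lowest Atp5g2 signal of the 6 RAW264.7 arrays.

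The number of genes that fell depended on the arrays and on the model. It was 2 without unstimulated 1, 1 without unstimulated 2, 2 without estradiol 1 and 2 without estradiol 3. Without unstimulated 3, 2 fell and Cox6b2 rose. Without estradiol 2, the array with the unequal RNA quality probes, 5 fell, with Cox7c in place of Sdhb. Cox7a1 passed in each of these fits, and Ndufs8 passed in all but the one without unstimulated 2, where its adjusted p was 0.0509. With an intensity-dependent robust prior, 23 of the 79 fell and 1 rose, while of all 12393 genes 850 fell and 1109 rose.

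Pregnancy changed none of the 79 genes past the test in lavage macrophages. The count was 0 of 79 by limma and 0% over all genes, and at an unadjusted p under 0.05 it was again 0 of the 79, against 1163 of the 12393 genes. In 61 of the 79 genes the difference was positive, with a median of 0.03 log2 units, equal to the median over all genes (0.03). It was negative in 22.8% of the 79 and in 39.5% of all genes. In the top 10% of genes by level, where 57 of the 79 lie, the median was 0.004 and 46.6% of genes were negative. Without control 2, 47 of the 79 were positive. All 3 pregnant arrays lay above all 3 control arrays in 14 of the 79 genes (17.7%) and in 10.7% of all genes. The opposite order held in 0 of the 79 and in 4.99% of all genes. In 76 of the 79 the 95% interval excluded a change of 0.5 log2 units. In RNA from lavage, fewer cells of a type and less RNA per cell cannot be told apart.

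The gene with the highest pregnancy difference in complex I was Ndufa5, an accessory subunit, with 5946, 5930 and 6095 in the pregnant arrays, against 5393, 5731 and 5199 in the control arrays (difference 0.14, adjusted p = 0.552). In complex II it was Sdhb, with 6342, 6565 and 6281 in pregnant arrays, against 6061, 5906 and 6106 in control arrays (difference 0.09, adjusted p = 0.663). In complex V it was Atp5md, a small membrane subunit, with 4775, 4836 and 5033 in pregnant arrays, against 4568, 4568 and 4483 in control arrays (difference 0.10, adjusted p = 0.603). In these 3 genes the groups did not overlap. Cyc1 led complex III, with 3050, 3333 and 3049 in pregnant arrays, against 2933, 2990 and 3074 in control arrays, which overlap (difference 0.07, adjusted p = 0.769).

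The widest pregnancy differences were those of dim or variable complex IV genes, and none passed the test. Cox7c had 331, 328 and 302 in pregnant arrays, against 266, 573 and 432 in control arrays, where the control arrays themselves spread over more than the difference (-0.33, 95% interval -0.96 to 0.29). Cox6a2 had 186, 226 and 172 in pregnant arrays, against 199, 134 and 165 in control arrays (difference 0.24, 95% interval -0.16 to 0.63). The lowest differences elsewhere were -0.10 for Ndufb1, -0.06 for Sdhd, -0.02 for Atp5a1 and 0.00 for Uqcr11.

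The pregnancy and estradiol changes were then compared in a fit of all 12 arrays. Cox7a1 and Sdhb differed between these changes, 2 of the 79 higher in the pregnancy change and 0 lower, and 2.21% of all genes were higher. Cox7a1 had 352, 347 and 366 in pregnant arrays, against 296, 331 and 342 in control arrays, a difference of 0.14 (adjusted p = 0.602) beside the estradiol difference of -0.75. The pregnancy change minus the estradiol change was 0.89 log2 units (SE 0.10, 95% interval 0.67 to 1.12, adjusted p = 0.000866). For Sdhb that value was 0.29 (SE 0.07, 95% interval 0.14 to 0.43, adjusted p = 0.0397). Leaving out any array but estradiol 2 took the adjusted p of Sdhb past the threshold, while Cox7a1 passed in every fit. Over the 79 genes, 67 of these values were positive, with a median of 0.09, against 0.01 over all genes.

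In 8 of the 79 genes (10.1%) all pregnant arrays lay above all control arrays and all estradiol arrays lay below all unstimulated arrays, and 1.71% of all genes showed this. They were Atp5md, Cox7a1, Ndufa10, Ndufb8, Ndufc1, Ndufs4, Ndufv2 and Sdhb, and of these 8 only Cox7a1 and Sdhb passed the test of the difference. Cox7a2, Ndufa2 and Ndufa7 (3.8%) were higher in both comparisons by the same measure, as were 1.75% of all genes. The comparison sets RNA taken directly from animals beside cultured cells, so source and treatment cannot be told apart in it.

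Control lavage cells had lower signals than unstimulated RAW264.7 cells for most of the 79 genes. Relative to unstimulated RAW264.7 cells, control lavage had 48 of the 79 genes lower and 2 higher past the test, while 34% of all genes were lower and 27.9% higher. The 2 higher genes were Cox6b2 and Ndufa3. In 70 of the 79 (88.6%) the difference was negative, against 57.3% of all genes. The median was -0.20 log2 units, against -0.07 over all genes, and among the 48 lower genes the median fold was 1.20. Lavage and the cell line differ in culture, in origin and in the cells they hold, and these cannot be told apart.

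Some genes of every complex were lower in lavage, and as a share of the complex most in complex III and fewest in complex IV. Lower in lavage were 22 of 33 genes of complex I, 3 of 4 of complex II, 8 of 9 of complex III, 4 of 16 of complex IV and 11 of 17 of complex V, and the differences between these counts were not tested. Over all genes 34% were lower, and the share of complex IV was below that. Ndufs8 had the largest fall, with 7988, 7398 and 7881 in control lavage, against 12324, 12519 and 11979 in unstimulated RAW264.7 cells. The groups lay far apart, and the fall was 0.66 log2 units (SE 0.05, adjusted p = 4.83e-05). Next came Sdhc, with 4428, 4146 and 4363 in control lavage, against 6301, 6203 and 6169 in RAW264.7 cells, a fall of 0.53 (SE 0.05, adjusted p = 9.74e-05).

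In complex III, Cyc1 had 2933, 2990 and 3074 in control lavage, against 4183, 4458 and 4303 in RAW264.7 cells, a fall of 0.52 (adjusted p = 0.000116). Uqcrq, a small subunit next to cytochrome b, had 3597, 3364 and 3309 in control lavage, against 4832, 4781 and 4663 in RAW264.7 cells, a fall of 0.48 (adjusted p = 0.000255). The remaining gene of the complex that did not pass, Uqcrb, had a difference of -0.10 (adjusted p = 0.105). In complex V, Atp5l, a membrane subunit, had 5000, 4304 and 4594 in control lavage, against 6679, 6814 and 6448 in RAW264.7 cells, a fall of 0.52 (adjusted p = 0.000573). Atp5md had 4568, 4568 and 4483 in control lavage, against 6086, 6242 and 6029 in RAW264.7 cells, a fall of 0.43 (adjusted p = 0.00017).

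Also in complex I, Ndufb8, an accessory membrane subunit, had 5751, 5717 and 5611 in control lavage, against 7717, 7684 and 7608 in RAW264.7 cells, a fall of 0.43 (adjusted p = 0.000149). Ndufa3, another accessory subunit, went the other way, with 8178, 7801 and 8206 in control lavage, against 7054, 7180 and 7067 in RAW264.7 cells, a rise of 0.18 (SE 0.05, adjusted p = 0.012). In complex II, Sdha had 7441, 7775 and 7527 in control lavage, against 8637, 8562 and 8840 in RAW264.7 cells, a fall of 0.20 (adjusted p = 0.00862), but its second probe set had a difference of 0.24. Sdhb had a fall of 0.15 (adjusted p = 0.0287), and Sdhd had a difference of -0.14 that did not pass (adjusted p = 0.0549).

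**Figure D4:**
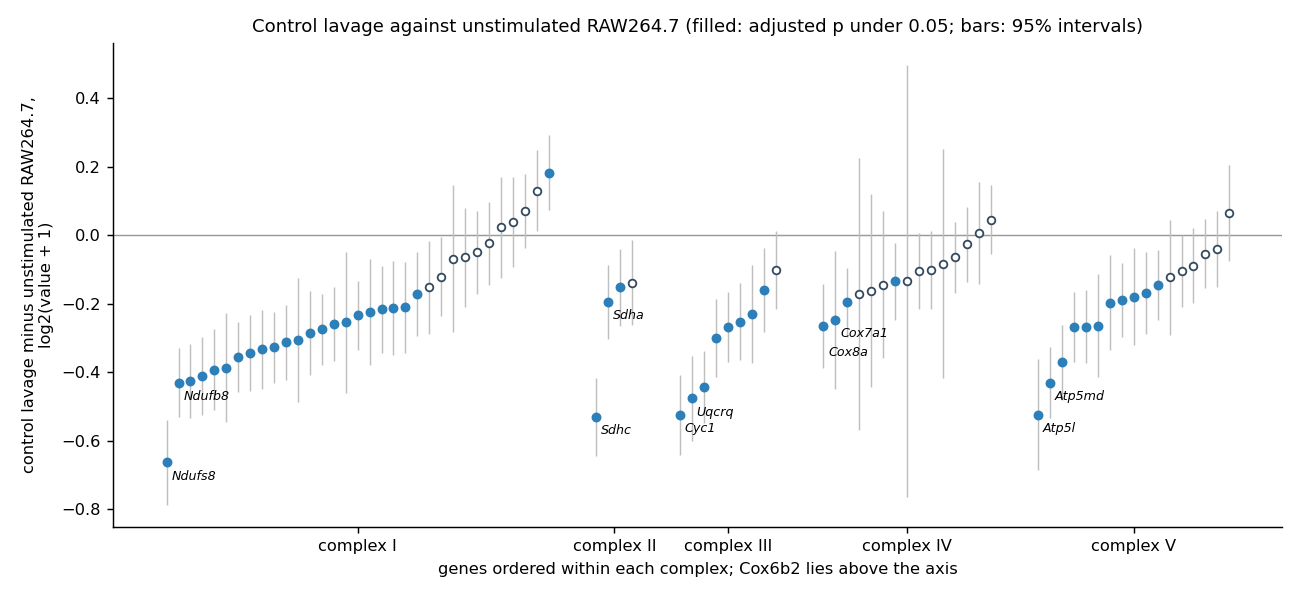
Points are genes, ordered within each complex by control lavage minus unstimulated RAW264.7 cells in log2(value + 1), with 95% intervals as grey bars, and filled points passed the test. Most filled points lie below 0, from -0.66 (Ndufs8) upwards, the filled point above 0 is Ndufa3, and Cox6b2, at 7.31, is beyond the axis.

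Cox6b2 was bright in lavage and dim in RAW264.7 cells, by far the largest difference of the 79 genes. It encodes the form of complex IV subunit VIb known from testis. Its intensity was 5710, 5185 and 6473 in pregnant arrays and 6110, 5005 and 6062 in control arrays. In RAW264.7 cells it was 45, 44 and 48 in estradiol arrays and 35, 29 and 43 in unstimulated arrays, dim on all 6. Its level stood at the 90.8th percentile of all genes in control lavage and at the 21.3rd in unstimulated RAW264.7 cells. Control lavage minus unstimulated RAW264.7 was 7.31 log2 units (SE 0.15, 95% interval 6.94 to 7.67, adjusted p = 1.32e-07), which ranks 41st by size among rises of the 12393 genes. The RAW264.7 signal may lie at the array's background, for which the table gives no call, so the size of that fold depends on it.

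Its ubiquitous counterpart Cox6b1 had 15472, 14640 and 15379 in control lavage, against 15481, 15448 and 15365 in unstimulated RAW264.7 cells. The groups overlapped, and the difference was -0.03 (95% interval -0.14 to 0.08, adjusted p = 0.644). Cox6b2 did not change past the test with pregnancy (difference 0.02, 95% interval -0.26 to 0.29) or estradiol (difference 0.38, 95% interval 0.08 to 0.69, adjusted p = 0.109). It too has a single probe set here. Of the nearest RefSeq genes on the array, Tmem150b was higher in control lavage by 2.63 log2 units, Kmt5c by 0.55 and Il11 by 0.43. These passed the test, as did rises in 27.9% of all genes. The Il11 signal was low in both sources, with means of 4.88 in control lavage and 4.46 in unstimulated RAW264.7 cells, where Cox6b2 had 5.17. The mean of complex IV is moved by Cox6b2 alone: with it, the mean log2 level over the 16 genes was 10.94 ± 0.05 in control lavage and 10.60 ± 0.01 in unstimulated RAW264.7 arrays (SD, n = 3 each). Without it, the mean over 15 genes lay at 10.82 to 10.89 in control lavage and 10.95 to 10.97 in unstimulated RAW264.7 arrays.

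**Figure D5:**
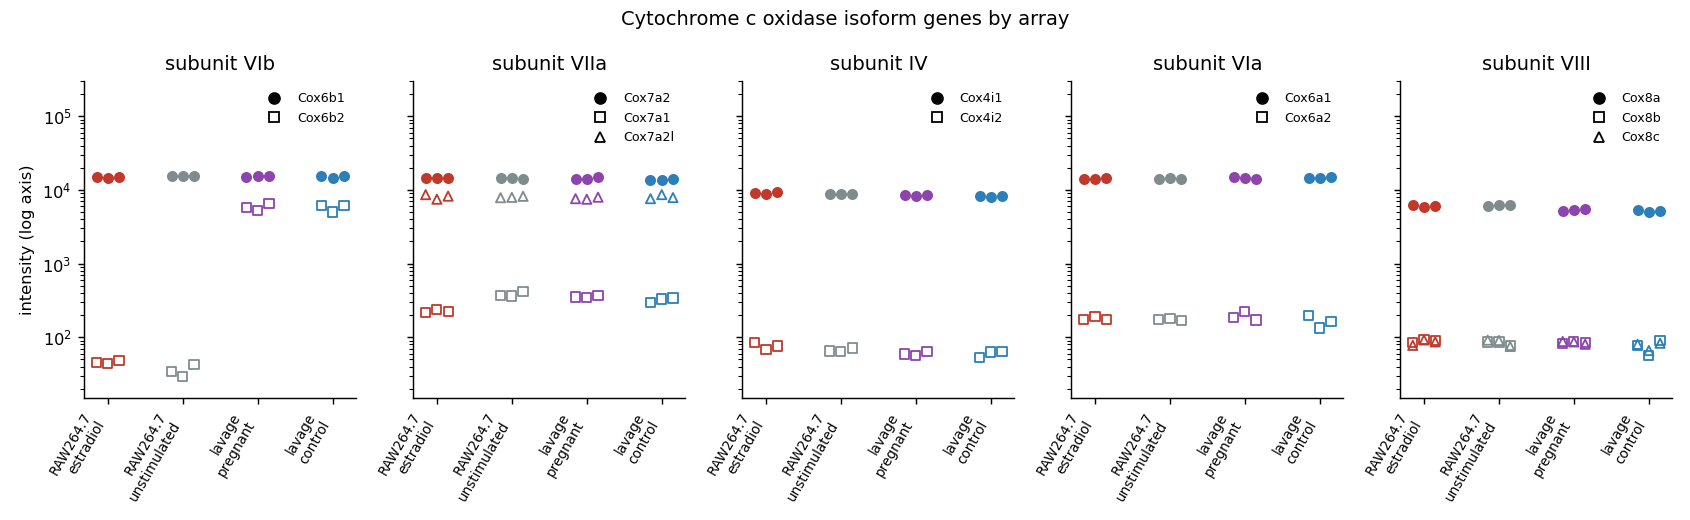
Intensities on a log axis of the complex IV genes that exist as several forms, by array, with filled circles for the ubiquitous form and open symbols for the others. Cox6b2 lies near 5000 or above in the 6 lavage arrays and below 50 in the 6 RAW264.7 arrays, Cox7a1 is lowest in the 3 estradiol arrays, and no other gene shown moves by as much. Heights of different genes come from different probes and cannot be compared.

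Lavage also carried markers of other cells, whose part in the differences was not tested. Of 6 epithelial genes, 6 were higher in control lavage, with a summed intensity of 13358 to 21601, against 232 to 282 in unstimulated RAW264.7 cells. For neutrophil genes it was 4 of 5, with 5761 to 18811 against 335 to 402, and for T cell genes 4 of 6, with 11399 to 11740 against 323 to 340, most of it from Cd2, while Cd4 and Cd8a were dim on all arrays. Cd3d was above the 40th percentile on 3 of the 6 lavage arrays, and Cd3e and Cd3g on 2 each. Of the 2 erythroid genes, Alas2 was above the 40th percentile on all 6 lavage arrays and Hba-a1 was dim on all 12 arrays. Muscle genes were dim in lavage. Across pregnancy no gene of these marker lists passed the test. The summed epithelial intensity was 14886 to 23511 in pregnant arrays and 13358 to 21601 in control arrays, that of neutrophil genes 5539 to 9557 in pregnant and 5761 to 18811 in control arrays, and that of T cell genes 10654 to 12035 in pregnant and 11399 to 11740 in control arrays. Differences of single genes were wide, at -1.37 log2 units for Cd3g, which was dim on most lavage arrays, 0.79 for Fabp4, 1.00 for Alas2 and 1.02 for Sftpc. The T cell list had a median of -0.46 with 4 of 6 genes negative, and the epithelial list had one of 0.24 with 4 of 6 positive.

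Other mitochondrial genes were counted in lists that follow the supply and assembly of the chain. Over all genes, 4.66% fell with estradiol and 45.1% had a negative difference. With estradiol, 3 of 16 genes of the citric acid cycle and pyruvate dehydrogenase fell, with a list median of -0.15 log2 units. They were Idh2 (-0.28, adjusted p = 0.0107), Dld (-0.26, adjusted p = 0.0314) and Sucla2 (-0.22, adjusted p = 0.0492), which encode a NADP-linked isocitrate dehydrogenase, a subunit shared by the large dehydrogenase complexes and a subunit of succinyl-CoA ligase. Of 74 genes of the mitochondrial ribosome 5 fell, 64 had a negative difference and the median was -0.09. Those with the smallest p were Mrps18a (-0.34), Mrpl16 (-0.25), Mrpl48 (-0.27) and Mrps35 (-0.21). Of 36 assembly factors of the complexes 2 fell, Ecsit (-0.23) and Ndufaf5 (-0.24), both needed to build complex I, and the median was -0.02.

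Of 10 carriers and channels Etfa fell (-0.23, adjusted p = 0.0201), which hands electrons from fatty acid oxidation to the chain, while 0 of 18 genes of protein import and 0 of 17 regulators passed the test. Of 9 genes of coenzyme Q synthesis, Coq8a rose (0.56, adjusted p = 0.00191), and Coq3 (-0.34, adjusted p = 0.00817) and Coq7 (-0.33, adjusted p = 0.0123) fell. All 3 also differed between the pregnancy and estradiol changes, at -0.67 for Coq8a, 0.32 for Coq3 and 0.51 for Coq7. With pregnancy, no gene of these lists passed the test.

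Between the sources most genes of these lists were lower in control lavage. Past the test were 59 of 74 mitochondrial ribosome genes lower and 3 higher, 26 of 36 assembly factors lower and 3 higher, 13 of 16 citric acid cycle genes lower and 1 higher, and 14 of 18 import genes lower and 0 higher, against 34% of all genes lower and 27.9% higher. Of 10 carriers and channels 6 were lower and 1 higher, and of 9 genes of coenzyme Q synthesis 6 were lower and 3 higher. Of 17 regulators 9 were lower and 0 higher. Ppargc1a, a coactivator known to drive mitochondrial genes, was lower by 3.14 log2 units (adjusted p = 2.57e-07), Tfam, which packages and transcribes mitochondrial DNA, fell by 0.54 (adjusted p = 0.00122), and Nrf1 fell by 0.34 (adjusted p = 0.00659). Cycs, cytochrome c itself, fell by 0.44 (adjusted p = 0.00167), and Idh3a, of the citric acid cycle, fell by 1.26 (adjusted p = 1.31e-05). Coq8a was higher in lavage by 1.67 (adjusted p = 2.22e-06).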

How the data were processed

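RNA of 12 samples was labelled with biotin and hybridised to Affymetrix mouse arrays, per the labels' protocols. The deposited table gives a linear intensity for each probe set on each array, made with RMA per the submitters' processing notes. The RMA version and the genome build are not given in the sources used here. The fits used log2 of the deposited intensity plus a pseudocount of 1. Of 22690 probe sets, 20380 had 1 gene symbol in the platform annotation, 691 had several, and 64 controls were left out. Each comparison was fitted over 12393 genes in limma 3.58.1 (lmFit, eBayes) under R 4.3.3, with 6 arrays a fit and 12 for the difference, two-sided, Benjamini-Hochberg adjusted, called under 0.05. The fits were tested on simulated data. The genes, lists and motifs were chosen with earlier results of these data known. All members and up to 4 called genes of each other list by smallest p could be named, beside the regulators. Array number limits the precision. Alternatives were scaling, a filter on dim genes, probe set choice, pseudocount, prior, array weights, all 12 arrays, threshold and each array left out.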

Additional observations from a re-analysis of the deposited data

Results flagged for a closer look

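Cox7a1 was picked out because its estradiol and pregnancy changes differed in the test of the difference itself, with 0.89 log2 units for the pregnancy change minus the estradiol change (adjusted p = 0.000866). The pregnancy change alone was 0.14 and the estradiol change -0.75. The pregnant arrays were higher than the control arrays in 3 of 3, and the estradiol arrays lower than the unstimulated arrays in 3 of 3.

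Sdhb was picked out by the same test, with 0.29 log2 units (adjusted p = 0.0397), from a pregnancy change of 0.09 and an estradiol change of -0.20. With any single array but estradiol 2 left out, Sdhb no longer passed. Groups of 3 arrays are too small for a further check of single outlying arrays.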

How the results depend on the processing

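Called with estradiol were 5 of the 79 genes, against 2 with quantile normalization, 2 with a common median, 13 of 75 with the filter on dim genes, 8 of 148 with all probe sets, 3 with no pseudocount, 8 with a pseudocount of 16, 24 with the robust prior, 20 with array weights and 2 at an adjusted p under 0.01, and 1 to 5 with an array left out. For the difference, 2 became 1 with a common median, 5 with the filter, 1 with all probe sets, 4 with a pseudocount of 16, 8 with the robust prior, 8 with array weights and 1 at 0.01, and 1 to 2 with an array left out. The array weights did not fully converge in the estradiol comparison, and that fit called 4010 genes in all, against 1414. Over all genes, the filter on dim genes called 1828 of 7618 with estradiol and the robust prior 1959 of 12393. For lavage against RAW264.7, 50 became 95 of 148 with all probe sets and 33 at 0.01. The genes lower in lavage, 48 in the main fit, numbered 34 to 46 with an array left out and 55 with the robust prior. Pregnancy kept 0 of the 79 throughout, and over all genes 0 became 18 with all 12 arrays in the fit. Cox7a1 passed in 17 of 17 estradiol alternatives (adjusted p 0.000107 to 0.00774) and in 22 of 22 for the difference (0.000424 to 0.00405). In the estradiol alternatives Ndufs8 kept its side of the threshold in 16 of 17, Sdhc in 8, Ndufs1 in 7 and Sdhb in 6, and for the difference Sdhb did so in 8 of 22. Over all single genes followed, 557 alternatives kept the side of the threshold, 66 lost a call and 15 gained a call. The 557 include changes of sign where neither fit called the gene, as for Atp5a1 with pregnancy (-0.046 to 0.016). In the source comparison Sdha turned to 0.024 with the mean of its probe sets. The causes were not tested, beyond fewer or more features tested. No paired analysis was possible because the labels give no replicate numbers. The table gives no detection calls or depth, so dim genes such as Cox6b2 in RAW264.7 cells may lie at background.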
